A study of Mus musculus with 18 samples.

Results

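Primordial germ cell-like cells (PGCLCs) are germline precursors made in vitro from mouse embryonic stem cells by way of epiblast-like cells. The comparison described here is between PGCLCs cultured with FGF10 and PGCLCs cultured with cyclosporin A (CsA), taken as the 4 libraries so titled, 2 per group, of the 18 libraries in the series. The libraries were taken by their titles alone, and all genes that passed a filter on low values were compared. The series concerns culture of these cells with CsA and with FGF signalling.

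In the FGF10 and CsA groups, and in the groups FGF2 and FR10 that stand beside them (2 libraries each), the cells were of strain B6D2F1, carried Blimp1-mVenus and Stella-ECFP reporters, were isolated by their mVenus on day 4 of induction, cultured for 7 days on m220-5 feeder cells treated with mitomycin C, and then sorted for mVenus again (d4c7). A further pair of groups, CsA and FR10, held E9.5 primordial germ cells from B6D2F1 x C57BL/6 embryos with a Stella-EGFP reporter, cultured on the same feeders, labelled E9.5c5 and sorted for EGFP (2 libraries each). FR10 stands for forskolin and rolipram, agents that raise cAMP, which the protocol lists together with stem cell factor in the feeder medium. Whether they were also present with FGF10, FGF2 or CsA is not stated. The sources used here give neither the doses of CsA and FGF nor whether the 10 in FGF10 belongs to a protein's name or to a concentration. The d4c7 cells share a reporter line, and mVenus follows Prdm1 (Blimp1), so the level of that gene was not independent of the sort. The labels call the 2 replicates of each cultured group biological.

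FGFs bind receptor tyrosine kinases and signal through RAS and MAPK to transcription factors of the ETS family, and the pathway induces its own inhibitors of the Sprouty and DUSP families. CsA binds cyclophilins, and the complex with the abundant cytosolic cyclophilin A inhibits calcineurin, a phosphatase that activates NFAT factors. Cyclophilins are also prolyl isomerases that help proteins fold, and 1 of them, cyclophilin B, resides in the endoplasmic reticulum. That compartment answers an excess of unfolded proteins by raising its chaperones through the unfolded protein response.

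Expression was measured with SC3-seq, which sequences the 3' ends of amplified cDNA, and is given in RPM, the reads of a gene scaled to a common library total, with no correction for transcript length. The depth inferred from the files was 2696999 and 3268357 reads in the FGF10 libraries, and 3455407 and 3309592 reads in the CsA libraries, where 3 reads equal 0.868 to 1.11 RPM. Differences are FGF10 minus CsA on the log2(RPM + 1) scale, with their standard error (SE), from a limma fit over all 18 libraries, and a gene was called at a Benjamini-Hochberg adjusted p under 0.05. The scale understates the difference of genes with low values. Between FGF10 and CsA, rose and fell give the level with FGF10 relative to CsA, not a change from FR10. Replicates differed by a median of 0.29 on the log2 scale, in absolute value, in the FGF10 group and of 0.286 in the CsA group. The same value was 0.468 in the FGF2 group, 0.426 in the E9.5c5 FR10 group and 0.601 in the E9.5c5 CsA group, so the replicates of those 3 groups stood further apart than those of the comparison.

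Germ cell markers were present in all 4 libraries. Tfap2c, a transcription factor of germ cell specification, was at 71.2 and 72.5 RPM with FGF10 and at 66.3 and 73.7 RPM with CsA. Of 23 feeder and fibroblast markers 17 were tested and 0 called in either direction, beside 0.628% of all genes. Their summed level was 1592 and 974 RPM with FGF10, against 1601 and 1210 RPM with CsA. Thy1 and Lum were listed at 0 in all 4 libraries. Within both groups replicate 1 was the higher for fibroblast matrix genes, as Dcn shows with 88.2 and 10.7 RPM for FGF10 and 47.5 and 10.6 RPM for CsA. Lists for other cell types were low, with summed levels of 51.9 and 56.3 RPM with FGF10 and 36.8 and 25.4 RPM with CsA for 18 endoderm and trophoblast markers, 99.0 and 105 RPM against 70.6 and 88.2 RPM for 15 blood and endothelial markers, and 99.0 and 104 RPM against 112 and 94.0 RPM for 12 neural markers. The part of these cells in the results below was not tested beyond what is given beside each.

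Cells cultured with FGF10 had higher levels of genes that answer to FGF and MAPK signalling, among them Etv4, Dusp4, Spry1 and Myc, and lower levels of endoplasmic reticulum chaperones, among them Hspa5, Hsp90b1 and Manf, than cells cultured with CsA. In all, 60 of 9561 genes tested were called, or 0.628%, of which 47 were higher with FGF10 (0.492%) and 13 were lower (0.136%). At an unadjusted p under 0.05 there were 1387. With 0.628% called, 0 calls in a gene list as short as those used here do not set that list apart. The median over all genes tested was 0.15, and with libraries scaled by median ratios, which brought that median to 0.0042, 24 genes were called higher and 18 lower. The number of calls rested on each of the 4 libraries, since limma called 0 genes without FGF10 replicate 1 (980 at an unadjusted p under 0.05), 0 without FGF10 replicate 2 (983), 1 without CsA replicate 1 and 25 without CsA replicate 2. All 60 genes kept their direction in each of those 4 fits, which was fixed in advance because their groups did not overlap. In these bulk samples fewer cells of a type and less RNA per cell cannot be told apart.

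**Figure D1:**
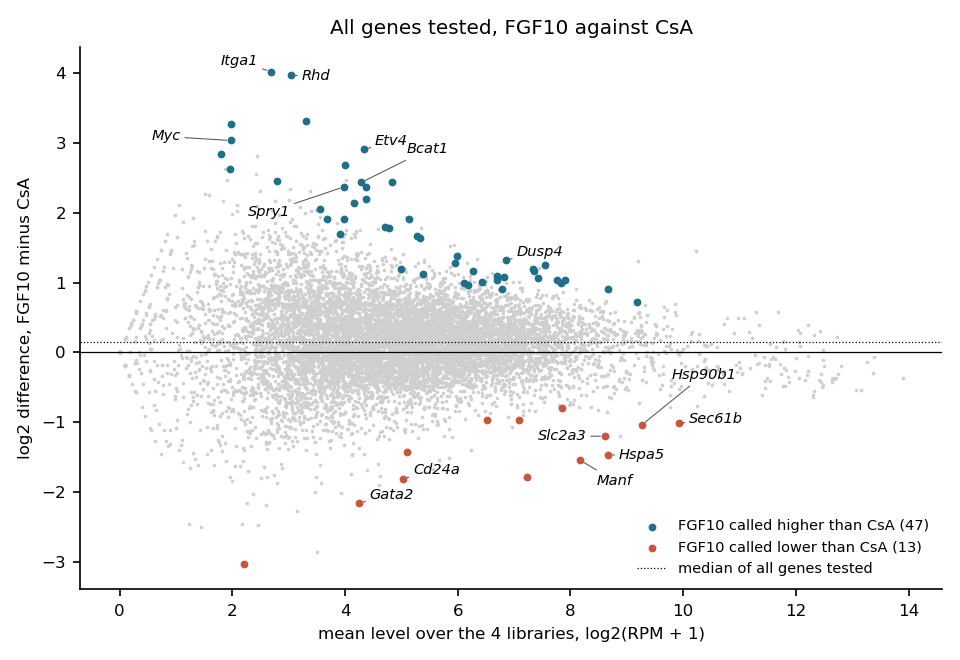
Log2 difference, FGF10 minus CsA, against the mean level of each of 9561 genes over the 4 libraries, both on the log2(RPM + 1) scale. Blue points are the 47 genes called higher with FGF10, red points the 13 called lower, and the dotted line is the median of all genes, 0.15. The called lower genes include several at high levels, such as Sec61b and Hsp90b1.

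Of 24 FGF and MAPK response genes 21 were tested. Called higher with FGF10 than with CsA were 4, and called lower 0, beside 0.492% and 0.136% of all genes. Both FGF10 libraries lay above both CsA libraries for 15 of the 21 and below them for 0, where the same held for 35.1% and 16.1% of all genes. The median difference over the 21 was 0.68, against 0.15 over all genes, and it lay between 0.43 and 0.79 under every alternative run. The list holds transcription factors, feedback inhibitors and immediate early genes. Its summed level was 831 and 716 RPM with FGF10, against 414 and 405 RPM with CsA and 658 and 665 RPM in FR10. The list median was 0.07 in FGF10 minus FR10 and −0.87 in CsA minus FR10, beside −0.08 and −0.24 over all genes.

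Etv4, an ETS factor induced by FGF signalling (chromosome 11, 101769747 to 101785310, GRCm38.p6), stood at 55.6 and 53.5 RPM with FGF10, against 8.39 and 4.83 RPM with CsA and 23.6 and 16.6 RPM in FR10. The 2 FGF10 libraries were close to each other and far above the rest, and the FR10 libraries lay between the groups. The difference was 2.91 ± 0.40 (SE, n = 2 per group; limma adjusted p = 0.0083). Its relative Etv5 differed less, with 192 and 170 RPM against 121 and 131 RPM (0.52 ± 0.28, adjusted p = 0.43 in limma), so the groups did not overlap but the gene was not called.

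Dusp4, a nuclear phosphatase that inactivates ERK (chromosome 8, 34807610 to 34819894), had 187 and 177 RPM with FGF10, against 78.1 and 66.5 RPM with CsA and 103 and 121 RPM in FR10 (1.32 ± 0.23, limma adjusted p = 0.016). Spry1, which codes for a Sprouty inhibitor of receptor tyrosine kinase signalling (chromosome 3, 37639947 to 37644599), had 46.0 and 26.3 RPM, against 3.76 and 9.06 RPM with CsA and 22.8 and 18.6 RPM in FR10 (2.37 ± 0.43, limma adjusted p = 0.019). For both genes the FGF10 libraries were the highest of the 6 and the CsA libraries the lowest. Spry4, of the same family, was low throughout, at 7.04 and 5.51 RPM with FGF10 and 4.05 and 1.21 RPM with CsA, and was not called (1.12 ± 0.52, limma adjusted p = 0.34), with 0.52 to 1.71 when 1 library was left out.

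Myc, a growth-promoting transcription factor, had 21.5 and 4.59 RPM with FGF10, against 0.868 and 0 RPM with CsA and 5.03 and 4.49 RPM in FR10. Only FGF10 replicate 1 stood clearly above FR10. The difference was 3.04 ± 0.59 (limma adjusted p = 0.026), and it was 2.03 without FGF10 replicate 1 and 4.04 without FGF10 replicate 2. The inferred reads were 73 with FGF10 and 3 with CsA, a ratio of 27.6 with an exact 95% interval of 9.08 to 137 that covers counting error only. FGF10 replicate 1 is also the library of the 4 with the most Dcn, and the part of feeder cells in the level of Myc was not tested.

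Dusp6, a cytoplasmic ERK phosphatase often used as a readout of FGF signalling, did not follow the list. It was at 0 and 1.53 RPM with FGF10 and at 1.74 and 1.21 RPM with CsA, with 5.81 and 8.63 RPM in FR10 (−0.63 ± 0.62, limma adjusted p = 0.71). Both cultures were near the level that 3 reads give, and below FR10.

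**Figure D2:**
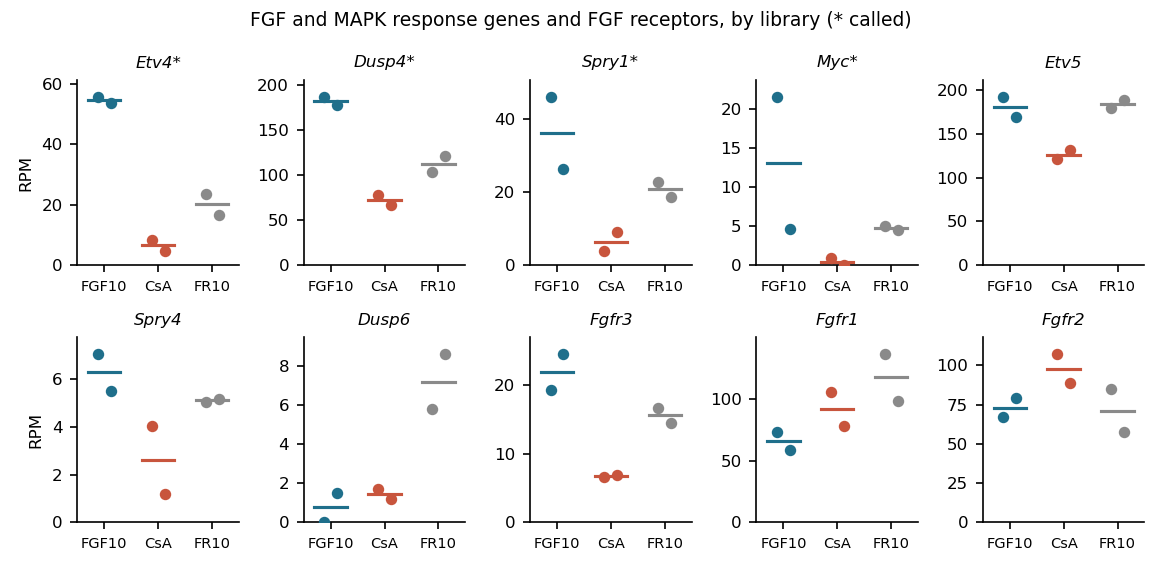
RPM of FGF and MAPK response genes and FGF receptors in each library of FGF10, CsA and FR10 (d4c7), with a point per library, a bar at the mean of 2 and a separate axis from 0 for each gene. An asterisk marks genes called in FGF10 against CsA. In Etv4, Dusp4, Spry1 and Myc the FGF10 libraries lie above the CsA libraries, whereas Dusp6 is near 0 in both groups.

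Of 28 FGF receptors, ligands and adaptors 20 were tested and 0 called in either direction, beside 0.628% of all genes. Their median was 0.21, which was 0 under median-ratio scaling and −0.17 with a filter of 50 RPM. Fgfr1 had 73.4 and 58.7 RPM with FGF10, against 105 and 78.3 RPM with CsA (−0.46 ± 0.24, limma adjusted p = 0.40). Fgfr2 had 67.1 and 78.9 RPM, against 107 and 88.5 RPM (−0.41 ± 0.50, limma adjusted p = 0.78). Fgfr3 had 19.3 and 24.5 RPM, against 6.66 and 6.95 RPM (1.54 ± 0.54, limma adjusted p = 0.19). The FGF10 libraries were thus below the CsA libraries for Fgfr1 and Fgfr2 and above them for Fgfr3, without a call. The ligand gene Fgf7 had 26.7 and 6.43 RPM with FGF10 and 3.18 and 0 RPM with CsA, a gap that was largest for the replicate with the most Dcn.

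Of 22 endoplasmic reticulum chaperones and folding enzymes 20 were tested. Called lower with FGF10 than with CsA were 3, and called higher 0, beside 0.136% and 0.492% of all genes. The FGF10 libraries lay below the CsA libraries for 14 of the 20 and above them for 1 (16.1% and 35.1% of all genes). The median difference was −0.92, beside 0.15 over all genes, with a range of −1.06 to −0.66 over the alternatives. The summed level of the list was 2158 and 2375 RPM with FGF10, against 3967 and 4441 RPM with CsA, and 2252 and 2134 RPM in FR10, so that FGF10 and FR10 lay close together and CsA stood above both.

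Hspa5, which codes for the chaperone BiP (chromosome 2, 34772090 to 34776529, GRCm38.p6), had 222 and 269 RPM with FGF10, against 659.8 and 697 RPM with CsA and 257 and 288 RPM in FR10 (−1.47 ± 0.31, limma adjusted p = 0.040). Hsp90b1, which codes for the chaperone GRP94 (chromosome 10, 86690841 to 86705444), had 406 and 456 RPM, against 848 and 918 RPM with CsA and 451 and 414 RPM in FR10 (−1.03 ± 0.16, limma adjusted p = 0.016). Manf, a secreted and reticulum-resident stress protein (chromosome 9, 106888753 to 106891938), had 152 and 185 RPM, against 459 and 526 RPM with CsA and 145 and 165 RPM in FR10 (−1.54 ± 0.31, limma adjusted p = 0.029). In each of the 3 genes the CsA libraries were the highest of the 6, and the FGF10 and FR10 libraries overlapped.

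Members that were not called included Pdia6, a protein disulfide isomerase, with 299 and 319 RPM against 644 and 781 RPM (−1.20 ± 0.37, limma adjusted p = 0.14). Ppib, cyclophilin B itself, had 20.8 and 19.6 RPM with FGF10 and 35.0 and 29.3 RPM with CsA (−0.64 ± 0.53, limma adjusted p = 0.64). Ero1l, an oxidase of the folding machinery, had 142 and 154 RPM against 117 and 128 RPM (0.27 ± 0.23) and was the 1 member for which both FGF10 libraries were higher.

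Chaperone genes of this compartment are known to be induced through the endoplasmic reticulum stress element (ERSE), which the factors NF-Y and ATF6 bind and which reads CCAAT, 9 bases of any kind, CCACG. It was searched on both strands in RefSeq promoter windows of GRCm38.p6, which reach from 250 bases before to 50 after a gene's start. The element was in a window of 7 of 17 tested chaperone and folding genes that have one (41.2%), of 2 of 20 translocon and degradation genes (10.0%), and of 14 of 7748 tested genes (0.181%). The 7 chaperone genes are shown here, named for the match and not for their values, because 2 of them, Hspa5 and Hsp90b1, are among the called genes. Each stretch is on the gene's own strand, with the element in capitals and 15 bases on each side, and where it reads antisense the capitals hold its reverse complement.
Hspa5 (chr2:34772010-34772058, plus strand): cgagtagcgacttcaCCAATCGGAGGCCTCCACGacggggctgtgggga
Hsp90b1, distal (chr10:86705623-86705671, minus strand): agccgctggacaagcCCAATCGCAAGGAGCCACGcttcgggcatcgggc
Hsp90b1, proximal, antisense (chr10:86705518-86705566, minus strand): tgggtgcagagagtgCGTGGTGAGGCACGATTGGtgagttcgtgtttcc
Pdia6 (chr12:17266476-17266524, plus strand): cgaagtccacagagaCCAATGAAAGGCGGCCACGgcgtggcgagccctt
Creld2, antisense (chr15:88819505-88819553, plus strand): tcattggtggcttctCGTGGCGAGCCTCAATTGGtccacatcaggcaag
Calr, antisense (chr8:84847060-84847108, minus strand): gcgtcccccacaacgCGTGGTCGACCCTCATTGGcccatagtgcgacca
Dnajc3 (chr14:118937812-118937860, plus strand): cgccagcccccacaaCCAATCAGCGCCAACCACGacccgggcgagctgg
Canx (chr11:50325785-50325833, minus strand): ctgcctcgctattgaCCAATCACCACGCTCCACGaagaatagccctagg

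Of these 7 genes, Hspa5 and Hsp90b1 were called lower with FGF10 than with CsA, and their FGF10 libraries overlapped those of FR10. Creld2, with a chaperone-like role in folding, had 29.7 and 48.6 RPM with FGF10, against 84.5 and 94.9 RPM with CsA (−1.21 ± 0.40), Calr, the chaperone calreticulin, 101 and 71.0 RPM against 168 and 191 RPM (−1.07 ± 0.42), and Dnajc3, a co-chaperone of BiP, 31.9 and 37.6 RPM against 67.1 and 62.5 RPM (−0.88 ± 0.28), all without a call. Canx, the membrane-bound lectin chaperone calnexin, carries the element too, yet its groups overlapped, with 112 and 162 RPM against 123 and 176 RPM (−0.12 ± 0.22). The match is a description of these letters and not a site or a cause. Manf, Hyou1 and Erp29 have no window in the table. For comparison, the ETS motif CCGGAAGT was in a window of 2 of 36 genes called higher (5.56%) and of 10.3% of tested genes. That count is over called genes and not over a list, and Etv4, Dusp4 and Myc, without a window, are not in it. Over the genes called lower, the ERSE was in a window of 2 of 8 (25.0%), namely Hspa5 and Hsp90b1.

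Genes that bring proteins into the compartment or clear them from it showed a smaller difference. Of 27 translocon and degradation genes 26 were tested, and 1 fell and 0 rose (0.136% and 0.492% of all genes). Without overlap 13 lay below and 2 above, beside 16.1% and 35.1% of all genes. The median was −0.33, beside 0.15 over all genes. Sec61b, the beta subunit of the translocon (chromosome 4, 47474661 to 47483233), had 737 and 627 RPM with FGF10, against 1481 and 1276 RPM with CsA and 586 and 607 RPM in FR10 (−1.02 ± 0.17, limma adjusted p = 0.016). Derl3 and Herpud1, which act in degradation from the compartment, had 54.5 and 44.7 RPM against 101 and 92.2 RPM, and 9.27 and 10.1 RPM against 23.7 and 19.3 RPM, without a call. For all 3 genes the CsA libraries were the higher.

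The sensors and transcription factors of the unfolded protein response gave no shared direction. Of 16 genes 14 were tested and 0 called in either direction, beside 0.628% of all genes. The median was 0.10, which turns negative under median-ratio scaling. Xbp1, a transcription factor of the response, had 81.2 and 101 RPM with FGF10, against 128 and 149 RPM with CsA and 55.0 and 76.3 RPM in FR10 (−0.60 ± 0.26, limma adjusted p = 0.30). Ddit3, which codes for the stress factor CHOP, had 5.56 and 3.67 RPM against 26.0 and 16.9 RPM (−1.99 ± 0.78, limma adjusted p = 0.24). Ppp1r15a, a phosphatase subunit that ends the block of translation, lay the other way, with 7.79 and 5.51 RPM against 2.03 and 1.81 RPM (1.37 ± 0.55, limma adjusted p = 0.25).

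**Figure D3:**
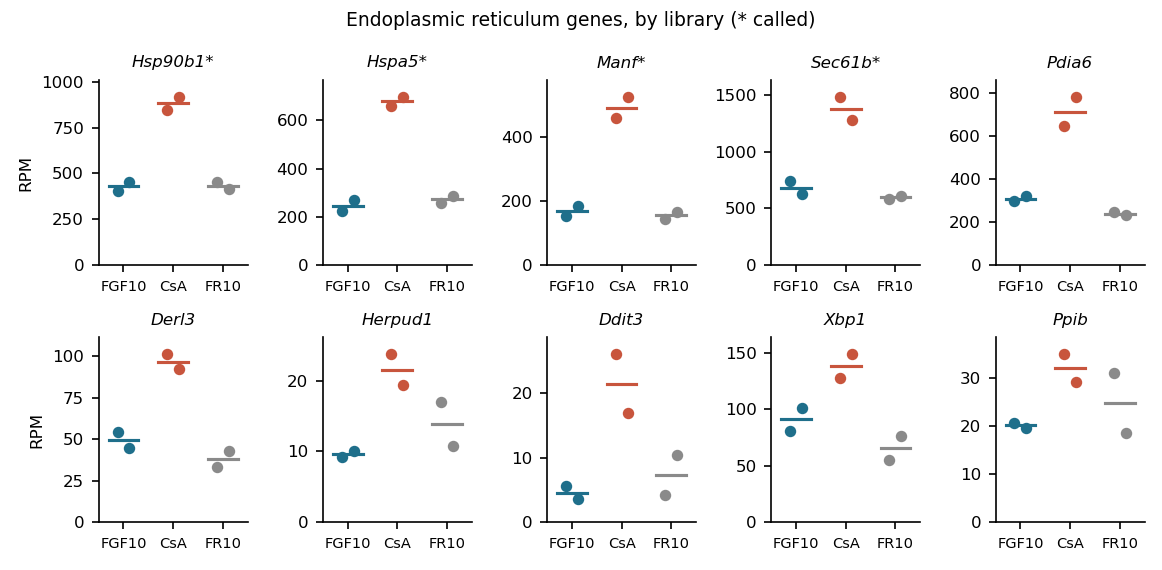
RPM of endoplasmic reticulum genes in each library of FGF10, CsA and FR10 (d4c7), with a point per library, a bar at the mean of 2 and a separate axis from 0 for each gene. An asterisk marks genes called in FGF10 against CsA. In Hspa5 the FGF10 libraries lie at 222 and 269 RPM, close to FR10, and the CsA libraries at 659.8 and 697 RPM.

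The genes of cyclophilins and of calcineurin signalling, on which CsA acts, held no called member. Of 16 cyclophilins 15 were tested and 0 called, and of 18 calcineurin, NFAT and Rcan genes 12 were tested and 0 called, each in either direction. Of all genes 0.628% were called, so 0 calls do not set these lists apart. Their medians of 0.12 and 0.03 lay below that of all genes and turn negative under median-ratio scaling. Ppia, cyclophilin A, had 5823 and 5738 RPM with FGF10 and 5829.8 and 5449 RPM with CsA. Rcan1, a calcineurin regulator known as an NFAT target, had 63.0 and 72.8 RPM against 77.8 and 73.7 RPM (−0.16 ± 0.28, limma adjusted p = 0.86). The largest gap was in the mitochondrial cyclophilin gene Ppif, with 26.0 and 37.0 RPM against 10.7 and 10.9 RPM (1.44 ± 0.37, limma adjusted p = 0.084).

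No early or later germ cell gene was called, where 0.628% of all genes were. Of 18 early germ cell genes 16 were tested and 0 called in either direction, with 9 below and 3 above without overlap (16.1% and 35.1% of all genes) and a median of −0.32. Of 22 later germ cell genes 17 were tested and 0 called in either direction, with 14 above and 0 below (35.1% and 16.1% of all genes) and a median of 0.57, beside 0.15 over all genes. All 17 had a positive difference, as did 5985 of all 9561 genes tested. That of Mov10l1, at 0.13, was −0.012 under median-ratio scaling and −0.078 without CsA replicate 2.

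Among early genes Dppa3 (Stella), a marker of germ cell precursors, had 892 and 976 RPM with FGF10, against 1554 and 1620 RPM with CsA and 1495 and 1495 RPM in FR10 (−0.77 ± 0.24, limma adjusted p = 0.15). Ifitm1, a surface protein gene of early germ cells, had 1073 and 1056 RPM, against 1543 and 1734 RPM with CsA (−0.62 ± 0.16, limma adjusted p = 0.084). Prdm1 had 29.3 and 38.9 RPM, against 63.4 and 62.5 RPM with CsA and 70.5 and 69.7 RPM in FR10 (−0.88 ± 0.43, limma adjusted p = 0.37). For Dppa3 and Prdm1 the FR10 libraries were near the CsA level or above it. Kit, the receptor for stem cell factor, lay the other way, at 114 and 145 RPM with FGF10 and 71.8 and 89.4 RPM with CsA, both below the 230.0 and 182 RPM of FR10 (0.68 ± 0.25, limma adjusted p = 0.21). Prdm14, a regulator of germ cell epigenetic state, and Nanos3, a survival factor, had differences of −0.23 ± 0.31 and 0.40 ± 0.38.

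Among later genes Dazl, an RNA-binding protein gene of colonizing germ cells, had 773 and 1112 RPM with FGF10, against 304 and 462 RPM with CsA and 724 and 881 RPM in FR10 (1.304 ± 0.78, limma adjusted p = 0.47). The groups did not overlap, but the SE was large. Ddx4 had 51.9 and 63.3 RPM with FGF10, against 50.6 and 47.1 RPM with CsA (0.23 ± 0.58). Slc25a31, a germ cell ADP/ATP carrier, had 22.6 and 24.5 RPM, against 4.63 and 10.6 RPM (1.60 ± 0.50, limma adjusted p = 0.14). Piwil2 and Tdrd5, of the piRNA pathway, had 66.4 and 82.6 RPM against 36.5 and 41.1 RPM, and 54.1 and 64.9 RPM against 34.1 and 32.9 RPM. The pluripotency factor gene Pou5f1 was at 335 and 376 RPM with FGF10 and at 314 and 328 RPM with CsA, a difference of 0.15 ± 0.20 that equals the median of all genes.

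On the lists of DNA methylation genes and histone modifying enzymes 1 gene was called. Dnmt3b, a de novo DNA methyltransferase gene (chromosome 2, 153649411 to 153687730), rose to 42.3 and 59.1 RPM with FGF10, against 9.55 and 19.9 RPM with CsA and 18.6 and 26.9 RPM in FR10 (1.78 ± 0.32, limma adjusted p = 0.017). It was the 1 called gene of 12 tested DNA methylation and TET genes, beside 0.628% of all genes. The median of those 12 was 0.36, beside 0.15 over all genes. Of 24 tested histone modifying enzymes 0 were called in either direction, with 15 above and 1 below without overlap (35.1% and 16.1% of all genes) and a median of 0.51, beside 0.15 over all genes. Within the PRC2 complex Suz12 had 141 and 187 RPM against 59.6 and 110 RPM (0.99 ± 0.26, limma adjusted p = 0.090) and Eed 169 and 201 RPM against 104 and 138 RPM (0.62 ± 0.24), while the catalytic subunit gene Ezh2 lay the other way with 139 and 159 RPM against 187 and 165 RPM (−0.24 ± 0.39).

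In energy metabolism both directions occurred. Of 23 tested glycolysis and hypoxia genes 1 rose and 1 fell, beside 0.492% and 0.136% of all genes. Pfkp, a phosphofructokinase gene, had 223 and 264 RPM with FGF10, against 95.8 and 115 RPM with CsA and 174 and 138 RPM in FR10 (1.20 ± 0.25, limma adjusted p = 0.035). Slc2a3, the glucose transporter GLUT3, had 235 and 279 RPM, against 585 and 593 RPM with CsA and 250 and 359 RPM in FR10 (−1.20 ± 0.20, limma adjusted p = 0.016). Pdk1, which limits pyruvate entry into mitochondria, had 248 and 284 RPM against 117 and 111 RPM and was not called (1.21 ± 0.30, limma adjusted p = 0.070). Of 33 oxidative phosphorylation genes, all tested, 0 were called in either direction, with 22 below and 2 above without overlap (16.1% and 35.1% of all genes) and a median of −0.40. Their summed level was 17389 and 15944 RPM with FGF10, against 20962 and 20167 RPM with CsA and 16257 and 16423 RPM in FR10, so FGF10 and FR10 lay close together here too. Uqcrb, a complex III subunit gene, had 308 and 284 RPM against 526 and 544 RPM (−0.85 ± 0.22, limma adjusted p = 0.080).

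The lists of proliferation and growth held no called gene, with medians of 0.22 to 0.28 beside 0.15 over all genes. Of 24 G2 and M phase genes, all tested, 15 lay above and 1 below without overlap (median 0.28), and of 22 tested S phase genes 13 above and 3 below (median 0.22), beside 35.1% above and 16.1% below of all genes. Bub1b, a spindle checkpoint kinase gene, had 185 and 159 RPM with FGF10, against 90.9 and 103 RPM with CsA (0.82 ± 0.24, limma adjusted p = 0.12). Of 25 growth and translation genes and of 19 tested KIT, PI3K and mTOR genes 0 were called, with medians of 0.26 and 0.22. Pabpc1, the poly(A)-binding protein gene, had 1764 and 2215 RPM against 583 and 897 RPM (1.45 ± 0.36, limma adjusted p = 0.077), and Rheb, an activator of mTOR, 183 and 217 RPM against 113 and 122 RPM (0.76 ± 0.18, limma adjusted p = 0.062).

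The 13 tested BMP target and mesoderm genes held 0 called genes and a median of 0.58, which was −0.22 with a filter of 50 RPM. Axin2, a target of WNT signalling, had 7.04 and 4.28 RPM with FGF10, against 0.868 and 0 RPM with CsA, or 33 and 3 inferred reads, a ratio of 12.5 with an exact 95% counting interval of 3.91 to 63.6. Among the lists not described elsewhere, those of naive and core pluripotency, meiotic entry, cholesterol synthesis, amino acid metabolism, oxidative stress, p53 and the cAMP pathway each held 0 called genes and had medians between −0.04 and 0.32. Apart from amino acid metabolism and the cAMP pathway, the medians of these lists turn negative under median-ratio scaling.

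**Figure D4:**
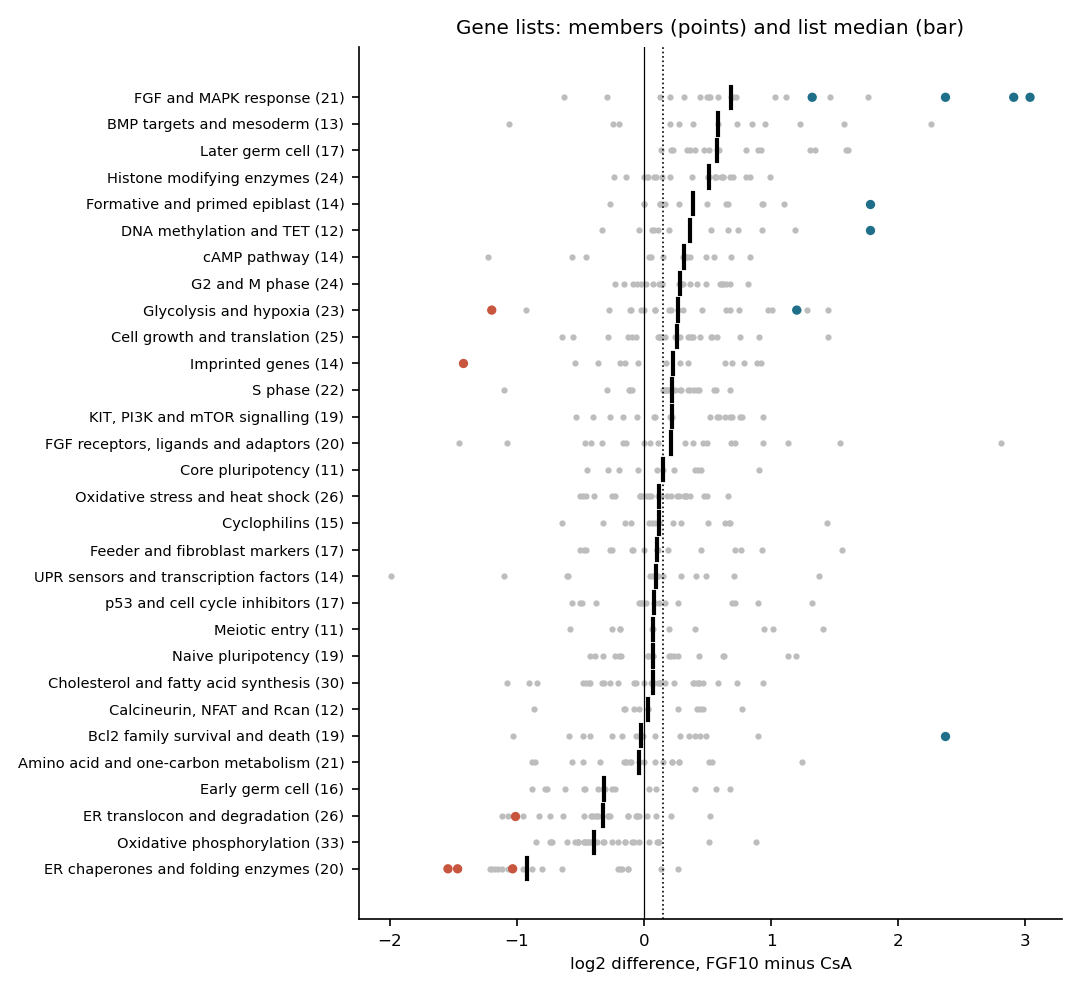
Log2 difference, FGF10 minus CsA, for the tested members of each gene list with at least 10 of them, the number tested in parentheses. Grey points are members, blue points members called higher with FGF10, red points members called lower, black bars list medians, and the dotted line is the median of all genes, 0.15. The list medians run from 0.68 for FGF and MAPK response to −0.92 for chaperones and folding enzymes.

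Several of the largest called differences were outside these lists. Itga1, the integrin alpha 1 subunit gene, rose to 31.5 and 19.6 RPM with FGF10, against 0.579 and 0.604 RPM with CsA and 3.49 and 7.25 RPM in FR10 (4.02 ± 0.56, limma adjusted p = 0.0083). The CsA values are 4 inferred reads in all, which gives a ratio of 42.2 with an exact 95% counting interval of 16.2 to 157. Bcat1, a branched-chain amino acid transaminase gene, rose to 42.6 and 46.2 RPM, against 5.79 and 9.37 RPM with CsA and 12.0 and 12.8 RPM in FR10 (2.44 ± 0.35, limma adjusted p = 0.0083). Rhd, an Rh blood group gene of red cells, rose to 29.3 and 34.0 RPM, against 0 and 3.32 RPM with CsA and 7.36 and 4.14 RPM in FR10 (3.97 ± 0.67, limma adjusted p = 0.016). In all 3 genes the 2 FGF10 libraries stood above all 4 others.

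Nrros, which controls TGF-beta activation, had 31.9 and 28.5 RPM against 2.89 and 1.51 RPM (3.32 ± 0.52). Slc40a1, the iron exporter ferroportin, had 64.5 and 66.7 RPM against 9.26 and 13.6 RPM (2.44 ± 0.42), and Trf, transferrin, the plasma iron carrier, had 12.98 and 5.20 RPM against 0.289 and 0.302 RPM, or 52 and 2 inferred reads (2.84 ± 0.60). Both iron genes rose, and Trf moved to 3.43 without FGF10 replicate 2 and 2.26 without FGF10 replicate 1. Bok, a relative of Bcl2 that promotes cell death, rose to 46.0 and 45.9 RPM, against 5.79 and 11.2 RPM (2.37 ± 0.50). It was the 1 called gene of 19 tested Bcl2 family and caspase genes, beside 0.628% of all genes. Limma adjusted p-values of these 4 genes ran from 0.016 to 0.038.

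Among the genes that fell outside the lists of the endoplasmic reticulum, Gata2, a transcription factor of blood and trophoblast development (chromosome 6, 88193891 to 88207032), had 6.30 and 10.1 RPM with FGF10, against 34.7 and 44.1 RPM with CsA and 34.9 and 43.5 RPM in FR10 (−2.16 ± 0.44, limma adjusted p = 0.035). Here CsA and FR10 were alike and FGF10 stood apart, as in Grn, which codes for the lysosomal protein progranulin, with 166 and 183 RPM, against 285 and 324 RPM with CsA and 311 and 303 RPM in FR10 (−0.80 ± 0.16, limma adjusted p = 0.035). Phlda2, an imprinted gene that restrains placental growth, fell to 24.1 and 16.5 RPM, against 62.5 and 48.9 RPM (−1.43 ± 0.24, limma adjusted p = 0.016), and Cd24a, a cell surface sialoglycoprotein gene, to 20.8 and 12.9 RPM, against 76.7 and 46.5 RPM (−1.81 ± 0.33, limma adjusted p = 0.019). The largest fall was in 3830403N18Rik, on chromosome X, which the rule for named genes leaves out and which is named after its values were seen. It had 0.371 and 0.918 RPM, against 19.7 and 7.55 RPM with CsA and 2.32 and 3.45 RPM in FR10 (−3.04 ± 0.59, limma adjusted p = 0.026), or 4 and 93 inferred reads. For Phlda2 the FR10 libraries lay between the groups, and for Cd24a they reached into the CsA range.

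Set beside FR10, the called genes differed in which culture stood apart. By group means FR10 lay between FGF10 and CsA for 44 of the 47 called higher and 10 of the 13 called lower. These genes were chosen for a difference between FGF10 and CsA, so those counts are a description only. FGF10 minus FR10 and CsA minus FR10 share the FR10 libraries with each other and their tested libraries with the comparison above, so their values are given side by side only. Over all genes limma called 0 of 9561 in FGF10 minus FR10 (477 at an unadjusted p under 0.05, and 0 by voom) and 3 in CsA minus FR10 (0.0314%). Those 3 were Sec61b and Hsp90b1, which rose with CsA by 1.20 ± 0.17 and 1.03 ± 0.16, and Dmtf1, a regulator of the ARF and p53 pathway, which fell by 1.81 ± 0.29 (CsA 13.9 and 16.0 RPM, FR10 70.9 and 42.1 RPM). Etv4 differed by 1.42 ± 0.40 for FGF10 and by −1.49 ± 0.40 for CsA, and Spry1 by 0.73 ± 0.43 and −1.64 ± 0.43. Hspa5 differed by −0.15 ± 0.31 for FGF10 and by 1.31 ± 0.31 for CsA, and Gata2 by −2.15 ± 0.44 and 0.01 ± 0.44. The median over FGF and MAPK response genes was 0.07 for FGF10 and −0.87 for CsA, and that over chaperones −0.01 and 0.67, beside medians over all genes of −0.08 and −0.24.

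Differences between other libraries were taken for the same 60 genes, although those libraries entered the fit and so the spread by which the 60 were called. In FGF2 minus FR10 of the d4c7 cultures 29 of the 47 genes higher with FGF10 had a positive difference, against 31.6% of all genes, and 11 of the 13 lower genes a negative one, against 68.0% of all genes. The medians were 0.24 and −0.71, with −0.33 over all genes. Without replicate 2 of FGF2, E9.5c5 FR10 and E9.5c5 CsA, 31 of 47 were positive (34.9% of all genes) and 10 of the 12 lower genes tested there were negative (64.6%), with FGF2 then resting on 1 library. With all libraries 11 of the 47 were called in FGF2 minus FR10, 7 higher and 4 lower, and 7 of the 13, all lower, beside 8.84% of all genes.

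The FGF and MAPK response list did not move one way in FGF2 minus FR10, where 1 of its 21 tested genes rose and 3 fell, and its median was −0.44. Etv4 was the gene that rose, at 51.0 and 51.3 RPM with FGF2 (1.33 ± 0.40, limma adjusted p = 0.047). Dusp6 was among those that fell (−2.61, limma adjusted p = 0.023), and Myc was not called (−0.08 ± 0.59). Bcat1, at 108 and 57.1 RPM with FGF2, Bok, at 45.3 and 67.8 RPM, and Dnmt3b, at 64.7 and 65.9 RPM, rose there as well, while Gata2 fell to 8.75 and 7.29 RPM. Of the 20 tested chaperones and folding enzymes 2 fell there and 0 rose, Hspa5 to 147 and 112 RPM with FGF2 and Hsp90b1 to 336 and 262 RPM. The list median was −0.43, beside −0.33 over all genes, with Manf at −0.71 ± 0.31 (limma adjusted p = 0.14) and Pdia6 at 0.03 ± 0.37, both not called. Spry1 was not called there, with 13.7 and 10.9 RPM with FGF2, below both FR10 libraries, and Itga1 was at 7.99 and 2.67 RPM, beside FR10.

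In the E9.5c5 cultures, CsA minus FR10 was negative for 40 of the 47 genes, against 61.1% of all genes, and positive for 11 of the 13, against 38.5% of all genes. Without the same 3 libraries the counts were 36 of 47 (49.3% of all genes) and 10 of 12 (50.1%), with 1 library left in each group. Limma called 0 genes in this comparison, with 703 at an unadjusted p under 0.05 and 1 called by voom. Hsp90b1 was at 826 and 723 RPM with CsA and at 370 and 364 RPM in FR10. Hspa5 had 679 and 274 RPM with CsA, against 187 and 107 RPM in FR10, where replicate 1 of CsA was far above replicate 2. Etv4 had 10.2 and 9.24 RPM with CsA, against 22.5 and 27.9 RPM in FR10. In all 3 genes the groups did not overlap, with CsA the higher for Hsp90b1 and Hspa5 and the lower for Etv4. The other FGF and MAPK response genes called above did not all follow Etv4. Dusp4 differed by −0.61 ± 0.23, Spry1 by 0.11 ± 0.43 and Myc by −0.01 ± 0.59. The median of that list was −0.47, beside −0.11 over all genes.

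**Figure D5:**
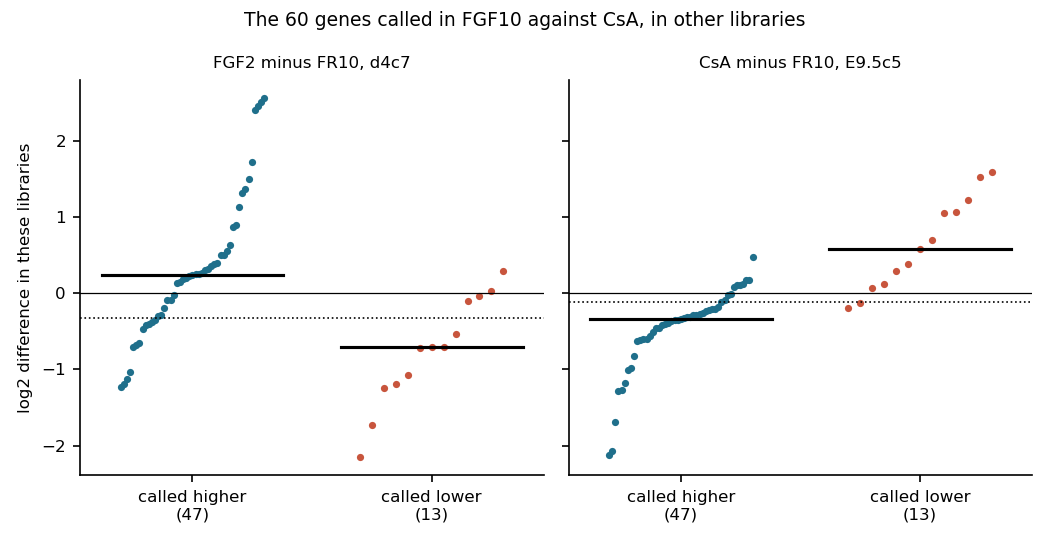
Log2 differences of the 60 genes called in FGF10 against CsA, measured between other libraries: FGF2 minus FR10 in d4c7 on the left and CsA minus FR10 in E9.5c5 on the right. Points are genes sorted by value, with those higher with FGF10 in blue and those lower in red, black bars are medians and dotted lines the median of all genes tested. The bars lie at 0.24 and −0.71 on the left and at −0.33 and 0.58 on the right.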

How the data were processed

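Total RNA of sorted cells, 1 ng per library, was sequenced by SC3-seq. The authors deposited 1 file of RPM values per library, with a gene symbol and gene number per row (34896 genes, of which 46 have no value). Tools named in the submitters' processing notes are Cufflinks 2.2.0, TopHat 1.4.1 and cutadapt 1.3, with the build mm10; how reads were assigned to genes is not stated in the sources used here. Read numbers were inferred from the smallest step of each file (2129326 to 7547917 reads over the 18 libraries). At least 99.7% of low values were whole reads within 0.02 read, but full counts could not be recovered, so the main test is on log values, and voom on the inferred reads stands in for a count test.

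Genes at 10 RPM or more in at least 2 libraries were tested with limma 3.58.1 (R 4.3.3, empirical Bayes with trend) on log2(RPM + 1), with 9 group means over 18 libraries and Benjamini-Hochberg adjustment over 9561 genes. The other groups add residual degrees of freedom and share 1 estimate of spread. Alternatives changed the pseudocount, filter, scaling, libraries, library weights and replicate block, left out each library, or used voom on inferred reads. Promoter sequences and gene coordinates are RefSeq's (GRCm38.p6).

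The comparison, gene lists and tests were chosen with earlier results of these data known. Named genes are chosen from up to 12 called in each direction with the largest difference (groups not overlapping; predicted, clone, Rik and small RNA names left out), up to 4 members of smallest p and the extremes of each list, and a panel of genes; Calr, Canx, Creld2 and Dnajc3 are named for their promoters, and Dcn and Thy1 as cell type markers. Symbols are matched as the files give them. With 1 ng inputs and amplification without molecular identifiers stated, intervals cover counting error only.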

Additional observations from a re-analysis of the deposited data

How the results depend on the processing

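The count of 47 genes higher and 13 lower with FGF10 depended on the other libraries that set the spread. With the 12 cultured libraries alone limma called 2 higher and 1 lower, with the 4 libraries of the comparison alone 470 and 183, without the 3 libraries whose replicates lie far apart 792 and 281, and with array weights 422 and 130. Other settings gave 24 and 18 with median-ratio scaling, 65 and 21 with a pseudocount of 10 RPM, 39 and 11 with 0.1 RPM, 39 and 12 without a filter, 64 and 15 with a filter of 50 RPM, 49 and 18 with the 8 d4c7 libraries, and 38 and 14 by voom. Leaving out 1 library gave 0 to 21 genes higher and 0 to 4 lower. The cause was not tested. Of the 60 genes, every one that was tested kept its direction in each of these settings, and 37 of them were among the 42 called with median-ratio scaling. The groups of these 60 genes did not overlap, so leaving out libraries or changing the filter, weights or pseudocount could not turn a direction. With the replicate number as a block 63 genes were called higher and 17 lower, and all 60 were among them; same-numbered libraries correlated with 0.209 between the 2 groups, and the labels do not say that the numbers pair them. Among the genes named in the text, those whose difference turned sign were not called. Under median-ratio scaling, which also turned 11 of 33 list medians (1 of them to 0), they were Mov10l1 (−0.012), Pou5f1 (−0.00368), Ppia (−0.114) and Tfap2c (−0.110). Leaving out 1 library gave −0.39 to 0.14 for Canx, −1.30 to 0.041 for Dusp6, −0.078 to 0.337 for Mov10l1, −0.012 to 0.085 for Ppia and −0.037 to 0.115 for Tfap2c. Depth limits the genes near 3 reads in 1 group, such as Myc, Trf and Axin2.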
